A study of Mus musculus with 249 samples.

Results

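The clustered protocadherin genes of the mouse lie in a row on chromosome 18, as the subclusters Pcdha, Pcdhb and Pcdhg. Of the 68162 windows of 40 kb listed genome-wide, 24 windows from 37080001 to 38040000 (mm9) cover these subclusters and make up the cluster described here. They belong to 75 windows between 36 and 39 Mb, of which 27 form the upstream flank and 24 the downstream flank, and to 2270 windows of chromosome 18. The cluster windows and both flanks were chosen by position alone.

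All libraries came from 46C cells, a mouse embryonic stem (ES) cell line, and were made by genome architecture mapping (GAM). In GAM, thin slices of nuclei (nuclear profiles) are cut from cryosections of 220 nm, their DNA is amplified and sequenced, and each window is scored as present or absent. Each library pooled nuclear profiles of several cells, 4 cut profiles per tube by the titles and an average of 3 by the series description. The titles put the libraries into 11 experiments with 20 groups. Of these, 54 libraries form the full collection. The stain experiments gave 16 stained and 10 unstained libraries for cresyl violet and unstained libraries only for propidium iodide (20 libraries), eosin (18 libraries) and SYBR Gold (10 libraries). The protocol text calls the SYBR Gold libraries stained, against their titles. The other experiments varied the reagent volumes (protocols A, B and C with 10, 11 and 10 libraries), the kit (small with 12 and large with 11 libraries), early against late freezing (12 and 11 libraries), and no freezing against freezing after incubation (11 and 10 libraries). The last ones varied the number of PCR cycles (20, 23 or 25, with 4, 5 and 3 libraries) and the volume of proteinase K (1 or 2 µl by title, with 5 and 6 libraries). For these arms the protocol text gives 0.1 and 0.2 µl per well, and the titles are used as names here. All groups share the cell line, and each library holds different cells. The text of the study calls their source an independent biological replicate of the cells in the singular, and no label says which libraries share a culture or a cryosection. The p-values below therefore measure only the spread between libraries, which may be technical. A library had 18.2% ± 7.69 (SD) of all listed windows positive, from 3.40% to 45.2%. The table holds no expression values, so the identity of the cells could not be checked against marker genes.

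Clustered protocadherins are cadherin-like adhesion proteins of the cell surface, best known from neurons, where each cell uses its own combination of isoforms. In Pcdha and Pcdhg, each variable exon has its own promoter and is spliced to a shared set of constant exons at the end of the subcluster. Pcdhb consists of single-exon genes without constant exons. Promoter choice is known to involve CTCF, cohesin and distant enhancers.

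The GENCODE vM1 annotation placed Pcdha at 37089939 to 37347311, Pcdhb at 37424652 to 37681073 and Pcdhg at 37833989 to 38001527. Genes of Pcdha overlapped 7 windows, those of Pcdhb 7 windows and those of Pcdhg 6 windows. The other 4 windows of the cluster overlapped no gene of these families. Of these, the window at 37520001 lies inside the span of Pcdhb and was not counted as a Pcdhb window. The start sites of 4 members mark the end of Pcdha, both ends of Pcdhb and the end of Pcdhg. Pcdhac2, the last variable exon of Pcdha, was not named in this annotation. It was identified as a transcript of the merged gene Pcdha11 (37303623 to 37347311, plus strand) whose length differed by 297 bases from that of Pcdhac2 in RefSeq. Pcdhb1, the first gene of Pcdhb, lies at 37424652 to 37427108, and Pcdhb22, the last one, at 37678007 to 37681073. Pcdhgc5, the last variable exon of Pcdhg, was identified as a transcript of the merged gene Pcdhgc5 (37979200 to 38001527), with a length difference of 0 bases from RefSeq.

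The mean detection of the cluster lay near that of the rest of its chromosome, but detection was uneven along the cluster. Its windows were positive in 39 to 67 libraries (median 52.5), against a median of 52 and a 5th to 95th percentile of 39 to 67 for the 2191 windows of chromosome 18 that were positive at least once. Per library, 21.3% of cluster windows and 21.2% of the other windows were positive, a difference of 0.0549 percentage points (SE 1.46). A permutation test that flipped the sign of the difference in each library, two-sided, gave p = 0.971. In 91 libraries the cluster was above the rest of chromosome 18 and in 158 it was below, with a median difference of -4.05 percentage points. Ordinary stretches gave a negative median too. Over 2074 overlapping stretches of 24 windows it was -4.27 at the median (5th to 95th percentile -6.91 to -0.850), and no test is drawn from it.

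**Figure D1:**
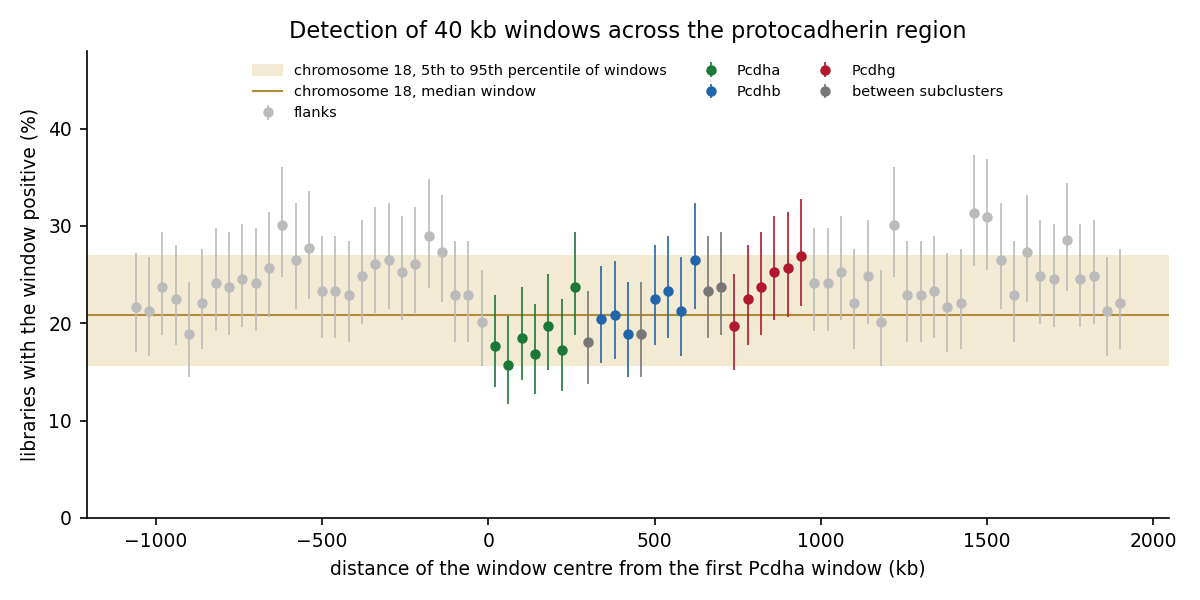
Percent of libraries in which each 40 kb window was positive, against the distance of the window from the first Pcdha window. Points are windows, bars are 95% Wilson intervals, and the shaded band spans the 5th to 95th percentile of chromosome 18 windows; detection was lowest in Pcdha (39 to 59 libraries) and higher in Pcdhg (49 to 67 libraries).

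The window of Pcdhac2 was positive in 43 libraries (17.3%, 95% Wilson interval 13.1% to 22.5%). The window of Pcdhb1 was positive in 51 libraries (20.5%, interval 15.9% to 25.9%). The window of Pcdhb22 was positive in 53 libraries (21.3%, interval 16.7% to 26.8%). The window of Pcdhgc5 was positive in 64 libraries (25.7%, interval 20.7% to 31.5%). Detection in these start-site windows thus followed the order of the members along the chromosome. However, the intervals of neighbours in this order overlap, as do those of Pcdhac2 and Pcdhgc5. These intervals cover counting error only. The order depends on the use of start sites. In the windows that hold the ends, Pcdhac2 had 59 libraries, Pcdhb1 51, Pcdhb22 66 and Pcdhgc5 67, so Pcdhac2 exceeded Pcdhb1. Detection did not rise steadily along the cluster either, as the first Pcdhg window was positive in 49 libraries.

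By subcluster, mean detection was 18.5% in Pcdha (SE over libraries 1.90), 21.97% in Pcdhb (SE 2.00) and 24.0% in Pcdhg (SE 2.13). The lowest window of the cluster, positive in 39 libraries, lies in Pcdha at 37120001 to 37160000, at the 5.13th percentile of chromosome 18. The last Pcdha window, which holds the constant exons, was positive in 59 libraries, more than any other Pcdha window. In Pcdhg, detection was 49 libraries in the first window and 67 in the last, which it shares with Diap1, a formin gene. The upstream flank reached 24.3% (SE 1.82) and the downstream flank 24.7% (SE 1.87).

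Differences between parts of the locus were tested within libraries after the values had been seen, 11 in all and adjusted together. Pcdha was detected less than the upstream flank, with a difference of -5.86 percentage points (SE 1.87, 95% interval -9.53 to -2.19, sign-flip permutation adjusted p = 0.0201). It was lower in 112 libraries, higher in 58 and equal in 79, and lower on average in 9 of 11 experiments. Over 2024 overlapping stretches of chromosome 18 of the same layout, a median of 86 libraries were lower and 66 higher. Without any one experiment the difference ranged from -7.14 to -4.78 percentage points, and the call was lost without the full collection (adjusted p = 0.206), cresyl violet (adjusted p = 0.111), SYBR Gold (adjusted p = 0.0852) or eosin libraries (adjusted p = 0.0621). The other 10 differences did not pass. Pcdhg exceeded Pcdha by 5.49 percentage points (SE 2.26, adjusted p = 0.0901) and Pcdhb exceeded Pcdha by 3.50 percentage points (SE 1.68, adjusted p = 0.0941). Pcdha minus the rest of chromosome 18 was -2.76 percentage points (SE 1.73, adjusted p = 0.154), while the upstream flank minus the rest was 3.10 percentage points (SE 1.66, adjusted p = 0.115).

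GC content was higher in parts of the locus with higher detection, with exceptions among the parts of lowest GC content. Windows with Pcdhb genes exceeded both Pcdha and the 4 cluster windows without genes of these families in detection, at a slightly lower GC content. GC content averaged 40.4% in Pcdha, 40.7% in those 4 windows, 40.2% in Pcdhb, 44.7% in Pcdhg, 45.1% in the upstream flank and 46.5% in the downstream flank. Across the 2191 windows of chromosome 18, GC content and the number of positive libraries had a Pearson r of 0.35, as a description across windows of the same libraries. Pcdha windows were positive in a mean of 46.0 libraries, and the 502 windows of chromosome 18 outside the region with a GC content within 1 percentage point of the Pcdha mean in 52.04 ± 10.5 (SD over windows). Against the 7 upstream windows whose GC content lay in the range of Pcdha, the difference of Pcdha was -5.39 percentage points (sign-flip permutation adjusted p = 0.0255).

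In single libraries the cluster was mostly absent or seen in pieces. Over the whole collection, 103 libraries held 0 of its 24 windows, 39 held 1 to 3, 61 held 4 to 11, 43 held 12 to 23, and 3 held all. Among the 146 libraries with any cluster window, the median was 8 positive windows in 3 separate runs, and the longest run had a median of 4 windows. Most of these values were those of an ordinary stretch of chromosome 18. Over its 2074 stretches of 24 windows, which overlap each other, the same 3 medians were 8, 3 and 4 at the median. A median of 107 libraries held none (5th to 95th percentile 86 to 123) and a median of 48 held at least 12, against 46 for the cluster. The 3 libraries with all windows compare with a median of 1 and lie at the 90.4th percentile. Mean autosomal coverage, the percent of autosomal windows positive, was 17.4% ± 7.19 (SD) in the libraries without the cluster and 24.1% ± 8.04 in the 46 libraries with at least 12 of its windows.

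A subcluster was counted as present in a library when at least 0.5 of its windows were positive. By this rule Pcdha was present in 42 libraries, Pcdhb in 52 and Pcdhg in 65. All 3 were present together in 20 libraries (8.03%, 95% Wilson interval 5.26% to 12.1%), and none in 163. Pcdha with Pcdhb but without Pcdhg was seen in 9 libraries, and Pcdhb with Pcdhg but without Pcdha in 19. Pcdha and Pcdhg without the Pcdhb that lies between them occurred in 5 libraries. Pcdhg alone was seen in 21 libraries, Pcdha alone in 8 and Pcdhb alone in 4. Of the 42 libraries with Pcdha, 29 also held Pcdhb (69.0%, interval 53.97% to 80.9%) and 25 also held Pcdhg (59.5%, interval 44.5% to 73.0%). Of the 65 libraries with Pcdhg, 25 also held Pcdha (38.5%, interval 27.6% to 50.6%). The 25 libraries are the same in both shares, which differ only through the number of libraries with Pcdha or Pcdhg. These patterns were not set beside other stretches of chromosome 18, so they are not shown to be particular to the subclusters.

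The windows of Pcdhac2, Pcdhb22 and Pcdhgc5, which lie 360 kb and 680 kb apart counted from Pcdhac2, were all positive in 14 of the 96 libraries that held any of them (14.6%). Among 2160 triples of chromosome 18 with the same spacing, the median share was 17.6% (5th to 95th percentile 11.0% to 25.0%), which put the protocadherin triple at the 22.6th percentile.

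Linkage was measured as D′, the co-segregation of 2 windows beyond what their detection frequencies give, divided by its possible maximum. Because D′ falls with distance, each pair was compared with the mean over chromosome 18 pairs of the same distance, and the mean difference is called excess linkage here. Errors come from leaving out each library in turn (jackknife), and p-values from a two-sided sign-flip permutation test of the jackknife values, adjusted over 11 linkage results. None of the 11 passed (lowest adjusted p = 0.178), while 2 had an unadjusted p under 0.05, those of the upstream and downstream flanks. On simulated data without any change in linkage, this test passed an unadjusted threshold more often than it should, so p-values close to the threshold may be too small. The simulated windows copied their neighbour with a fixed probability and had no experiments. The rate for the real data is therefore unknown.

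Within the cluster, 276 pairs had a mean D′ of 0.441 against 0.466 at equal distances. The excess was -0.0253 (SE 0.0299, 95% interval -0.0840 to 0.0333, adjusted p = 0.651). It was 0.0925 in the full collection alone, -0.0468 without it and -0.00892 without the early freezing test. Adjacent cluster windows were linked much like other neighbours on the chromosome, with a mean D′ of 0.649 ± 0.0596 (SD over 23 neighbouring pairs) against 0.631 ± 0.0750 for 2184 pairs of chromosome 18. The strongest neighbours lay in Pcdha, at 37200001 and 37240001, with 34 joint libraries and a D′ of 0.763. The weakest lay at the end of Pcdhb, at 37640001 and 37680001, with 35 joint libraries of 53 and 66 and a D′ of 0.538.

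Linkage within each subcluster lay slightly above that of equal distances, in no case beyond its error. The excess was 0.0259 in Pcdha (SE 0.0385, interval -0.0496 to 0.101, 21 pairs), 0.0156 in Pcdhb (SE 0.0360, interval -0.0549 to 0.0862, 21 pairs) and 0.0238 in Pcdhg (SE 0.0407, interval -0.0560 to 0.104, 15 pairs). Their adjusted p was 0.651 each. The direction was not stable in Pcdha and Pcdhb, as the Jaccard index gave -0.00490 within Pcdha, and linkage within Pcdhb was -0.00926 without the full collection and -0.00784 without the reagent volume libraries. In Pcdha, 16 of 21 pairs lay above the mean of their distance, in Pcdhb 12 of 21 and in Pcdhg 10 of 15. Pairs of a subcluster share windows, and the same share over chromosome 18 was not counted, so these counts are descriptions.

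Linkage between subclusters was below that of equal distances, most for Pcdha with Pcdhg. Pcdha and Pcdhb had an excess of -0.0269 (SE 0.0434, interval -0.112 to 0.0582, adjusted p = 0.781), which became 0.0174 without the early freezing test. Pcdhb and Pcdhg had an excess of -0.0302 (SE 0.0408, interval -0.110 to 0.0496, adjusted p = 0.651). Pcdha and Pcdhg had a mean D′ of 0.274 against 0.372, an excess of -0.0983 (SE 0.0530, interval -0.202 to 0.00561, adjusted p = 0.246). Of their 42 pairs, which share windows, 4 exceeded the mean of their distance, a description without a test. The excess of Pcdha with Pcdhg did not keep its sign in all batches, a difference that was not tested. It was 0.236 in the 54 libraries of the full collection alone and -0.160 without them (unadjusted p = 0.00654, adjusted p = 0.0548). Without the early freezing test it was -0.0648 (unadjusted p = 0.326, adjusted p = 0.897), the nearest to 0 of the values without 1 experiment, and it was negative in 9 of 11 experiments, most of which hold few libraries. The lower bounds of these 3 intervals, -0.112, -0.110 and -0.202, leave room for a clear deficit, so a p above the threshold does not show that the cluster was linked like other loci.

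**Figure D2:**
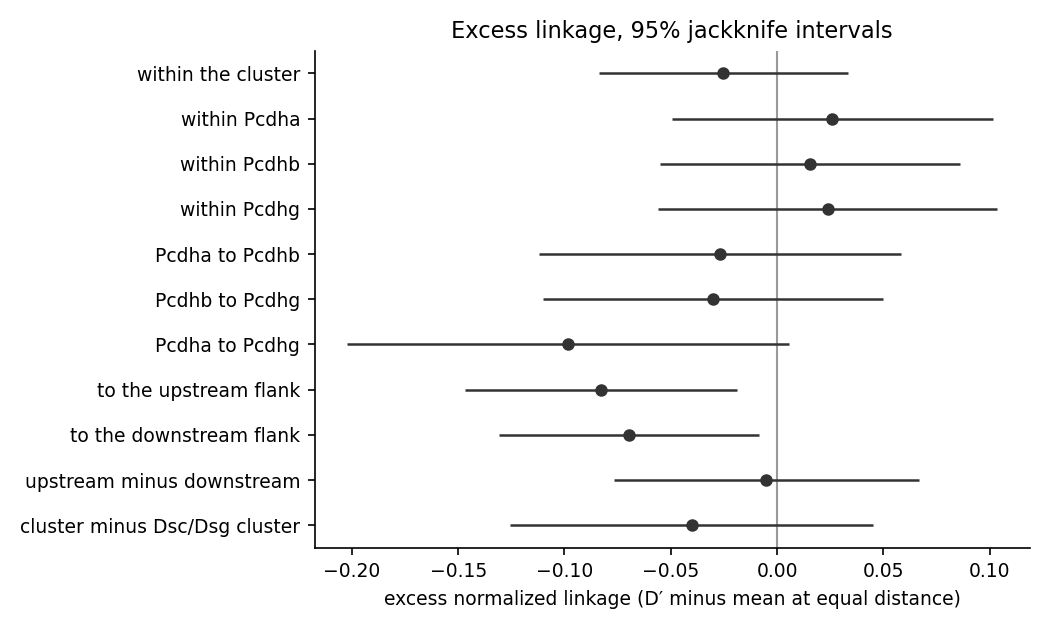
Excess normalized linkage (D′ minus the chromosome 18 mean at equal distance) for the 11 results, as points with 95% jackknife intervals over all libraries. The intervals of both flanks, -0.147 to -0.0189 upstream and -0.131 to -0.00870 downstream, lie under 0 before adjustment, and the others span 0.

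The 4 members gave 6 pairs. Pcdhac2 and Pcdhb1, 120 kb apart, were positive together in 29 libraries, with 14 for Pcdhac2 alone, 22 for Pcdhb1 alone and 184 with neither. Their D′ was 0.591 (jackknife SE 0.0862) against a mean of 0.526 ± 0.0818 (SD over pairs of equal distance). Pcdhb22 and Pcdhgc5, 320 kb apart on either side of the gap between Pcdhb and Pcdhg, shared 34 libraries and had a D′ of 0.517 (SE 0.0825) against 0.446. Both pairs lay above the mean, at the 77.9th and 79.5th percentile of their distance.

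Pcdhac2 and Pcdhb22, 360 kb apart, shared 24 libraries, and their D′ of 0.439 (SE 0.0903) was close to the mean of 0.437. The start-site windows of Pcdhb1 and Pcdhb22, 240 kb apart, shared 26 libraries with a D′ of 0.377 (SE 0.0809) against 0.472. Pcdhb1 and Pcdhgc5, 560 kb apart, shared 26 libraries with a D′ of 0.340 (SE 0.0857) against 0.395. The outermost pair, Pcdhac2 and Pcdhgc5 at 680 kb, shared 20 libraries with a D′ of 0.280 (SE 0.0947) against 0.375. No pair differed from the mean of its distance by as much as 2 jackknife SEs, and the z-scores ran from -1.09 to 0.81.

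Linkage to both flanks lay under that of equal distances in most pairs, although neither mean passed after adjustment. The cluster and the upstream flank had a mean D′ of 0.256 against 0.339 over 648 pairs. This excess of -0.0828 (SE 0.0326) had an unadjusted p of 0.0162 and an adjusted p of 0.178, and without the libraries of the eosin test it was -0.102 (adjusted p = 0.0473). The cluster and the downstream flank had a mean D′ of 0.276 against 0.346 over 576 pairs, an excess of -0.0699 (SE 0.0312, unadjusted p = 0.0446, adjusted p = 0.246). Without the reagent volume libraries, the downstream excess was -0.0422 (unadjusted p = 0.269, adjusted p = 0.493). Upstream and downstream linkage at equal distances differed by -0.00501 (SE 0.0366, adjusted p = 0.842).

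Each pair was also given a z-score within chromosome 18 and its distance. To the upstream flank, 302 of 648 pairs (46.6%) had a z-score under -1 and 4 had one above 1. To the downstream flank, these were 241 of 576 pairs (41.8%) and 14. Over all pairs of chromosome 18 up to 3 Mb apart, 15.8% were under -1 and 15.7% above 1. Within the cluster, 68 of 276 pairs (24.6%) were under -1 and 35 (12.7%) above 1. Pairs share windows and are not independent, so these shares are descriptions.

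Each subcluster was below equal distances on both sides. With the upstream flank, the mean excess was -0.0792 for Pcdha, -0.103 for Pcdhb and -0.0594 for Pcdhg. With the downstream flank, it was -0.0816 for Pcdha, -0.0594 for Pcdhb and -0.0580 for Pcdhg. Pairs within a flank had a mean excess of 0.00181 upstream and 0.0216 downstream. Set beside 1854 overlapping stretches of chromosome 18 of the same layout, the linkage of the cluster to the windows before it lay at the 1.11th percentile, that to the windows after it at the 4.07th and that within the cluster at the 17.8th. Linkage between the windows before and after the cluster, with an excess of -0.0955, lay at the 1.11th percentile as well, so low linkage was not limited to pairs with a cluster window. In the full collection alone, the excess was -0.0402 to the upstream and 0.0214 to the downstream flank, and over the 11 experiments it was negative in 8 and 7, respectively.

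**Figure D3:**
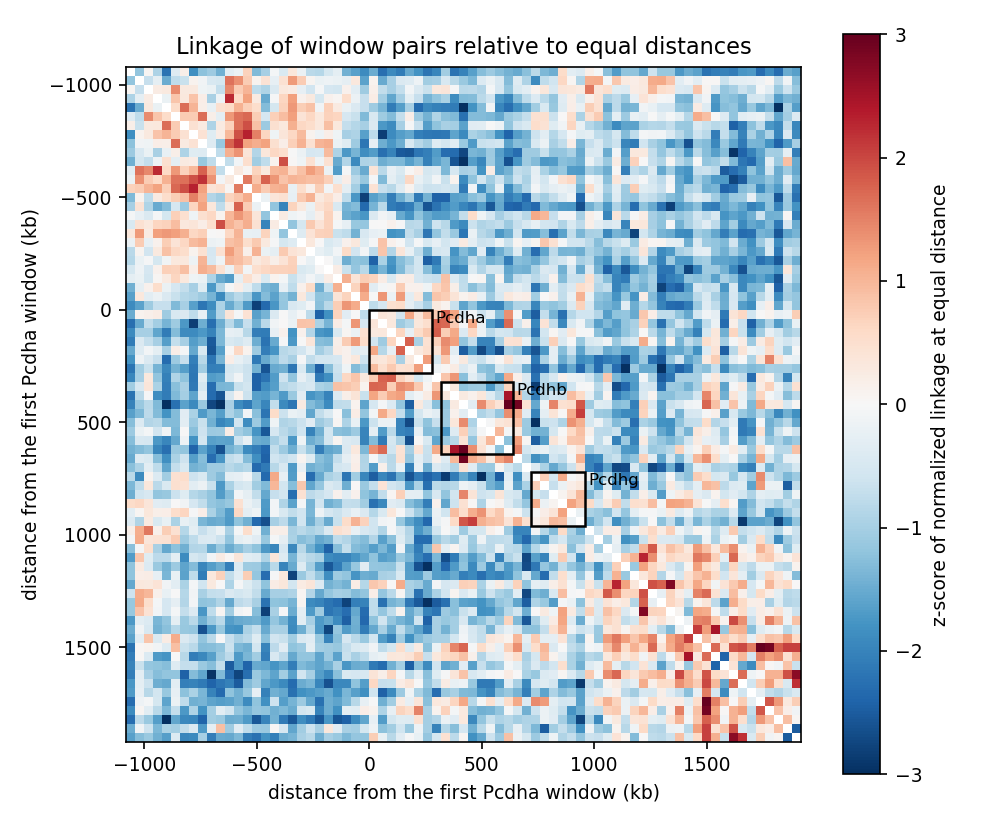
z-scores of D′ for all pairs of windows between 36 and 39 Mb, relative to chromosome 18 pairs of equal distance, with both axes as distance from the first Pcdha window in kb. Black squares mark Pcdha, Pcdhb and Pcdhg. Blue blocks between the cluster and its flanks show low linkage (302 of 648 upstream pairs under a z-score of -1), whereas 52 of 351 pairs inside the upstream flank and 20 of 276 inside the downstream flank are under -1.

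The extremes among many single pairs are described here, without a test. Of 1394 pairs at least 200 kb apart with at least 1 window in the cluster, the highest z-score, 3.23, belonged to the window of Pcdhb5 to Pcdhb8 (37480001 to 37520000) and the last Pcdhb window, which holds the end of Pcdhb22 (37680001 to 37720000). They were positive in 47 and 66 libraries and together in 39, with a D′ of 0.768 (SE 0.0733) against 0.487. The same Pcdhb5 to Pcdhb8 window and the gene-free window at 37720001 shared 37 libraries (D′ 0.723, SE 0.0758, z-score 2.90). The window of Pcdhb2 to Pcdhb4 and the last Pcdhb window shared 40 libraries (D′ 0.686, z-score 2.47). The next were the window at 38000001, with the end of Pcdhg and part of Diap1, paired with the windows at 37520001 (z-score 2.08) and 37480001 (z-score 1.87). All 5 of the highest pairs thus lay inside the cluster, which holds at most 276 of the 1394 pairs.

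The lowest z-score, -3.02, was inside the cluster as well. It joined the window of Pcdhb9 to Pcdhb12 (37560001 to 37600000) with the first Pcdhg window (37800001 to 37840000), which also holds Taf7, a subunit of the general transcription factor TFIID. They were positive in 56 and 49 libraries and together in 19 (D′ 0.210, SE 0.0807, against 0.472). The last Pcdha window and the window of Pcdh1, a non-clustered protocadherin, shared 16 libraries (D′ 0.0573 against 0.326). The last Pcdha window and the window at 38200001 shared 18 libraries (z-score -2.98). The other low pairs joined the Pcdhb5 to Pcdhb8 window with the window at 36160001 (Nrg2 and Psd2, 10 joint libraries, z-score -2.98) and with that at 36400001 (14 joint libraries, z-score -2.97). These pairs were selected for their z-scores among 1394 and carry no test. Without any one experiment, the z-score of the highest pair ranged from 2.54 to 3.67 and that of the lowest from -3.59 to -2.59.

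The insulation score, the mean D′ between the 400 kb on either side of a window, was under the chromosome 18 mean of 0.424 ± 0.0413 (SD over windows) in 24 of 24 cluster windows, which ranged from 0.344 to 0.399. Of all scored windows of chromosome 18, 50.1% were under this mean. Scores of neighbouring windows share most of their pairs, and 134 of 2157 overlapping stretches of 24 windows (6.21%) lay under it in full. Local minima with a prominence of at least 0.5 SD were found at 3 of the 75 windows of the region. This share is not above that of chromosome 18, with 97 of 2180 windows (4.45%). The first lay upstream of Pcdha at 36960001 to 37000000 (score 0.339, prominence 3.16 SD), in a window without protein-coding genes next to that of Dnd1, Hars, Hars2, Wdr55 and Zmat2. The second lay at 37440001 to 37480000 with Pcdhb2, Pcdhb3 and Pcdhb4 (score 0.344, prominence 1.34 SD). The third lay at 38000001 to 38040000, at the end of Pcdhg with part of Diap1 (score 0.347, prominence 0.923 SD). When each experiment was left out, a minimum within 1 window of these was found in 11, 10 and 9 of 11 cases. Their number depended on the settings, with 7 minima for a 200 kb square and 2 for a prominence of 1 SD.

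**Figure D4:**
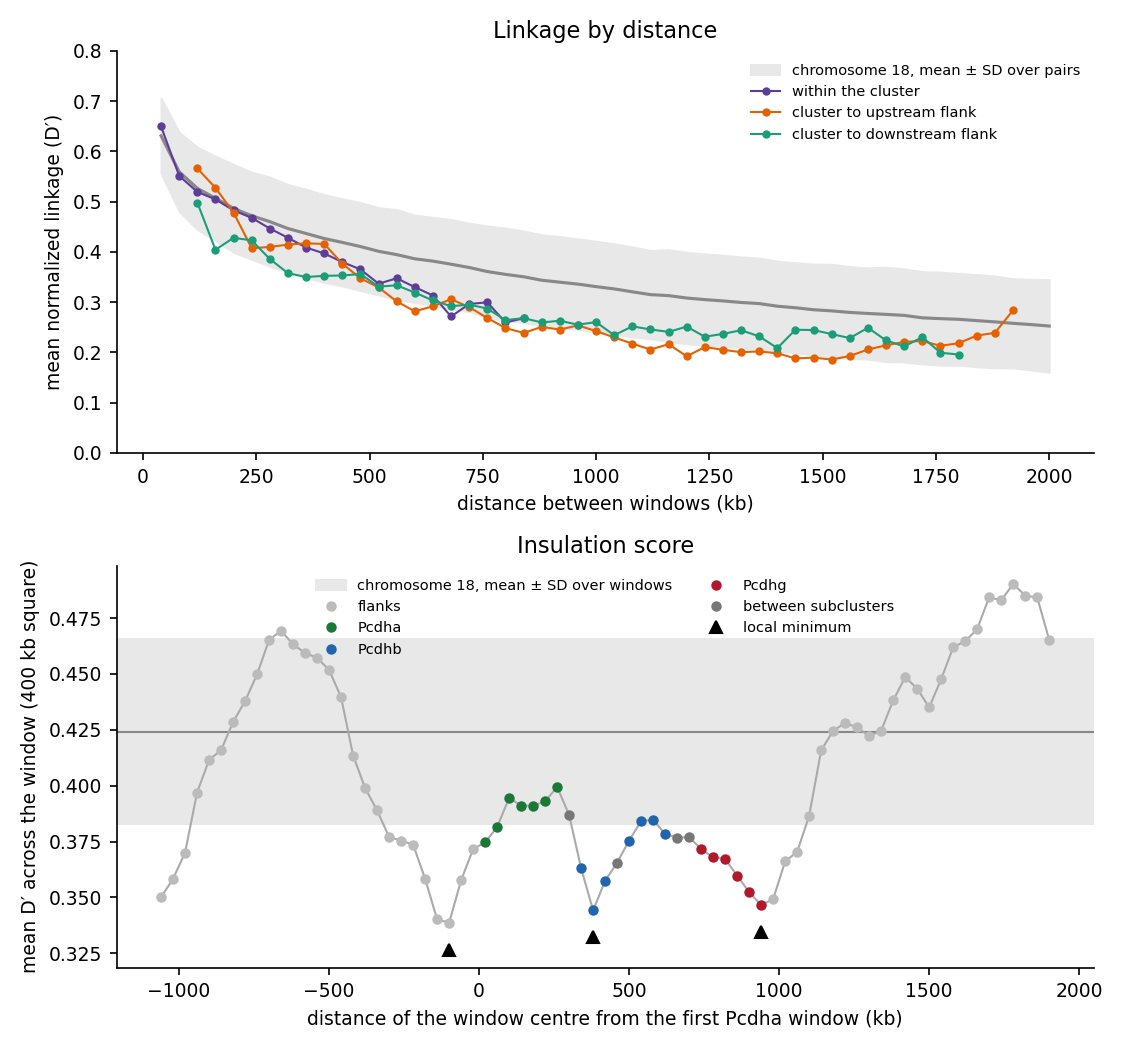
Top, mean D′ by distance for pairs within the cluster and from the cluster to either flank, with the mean ± SD of chromosome 18 pairs (distances with at least 3 pairs). Bottom, insulation score along the region with the chromosome 18 mean ± SD and triangles under the 3 local minima. The cluster follows the chromosome at short distances, and all 24 cluster windows lie under the mean score of 0.424.

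The desmocollin and desmoglein genes, another row of cadherin genes on chromosome 18, served as a cluster of similar kind. Their 18 windows (20119431 to 20763022 for the genes) were positive in 45 to 62 libraries, with a mean detection of 21.4% (SE 1.83). Their 153 pairs had a mean D′ of 0.504 against 0.489 at equal distances, an excess of 0.0149. The excess of the protocadherin cluster minus theirs was -0.0402 (SE 0.0436, interval -0.126 to 0.0453, permutation p = 0.426, adjusted p = 0.651).

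No difference in detection of the cluster between experiments was found beyond the spread between libraries. The mean share of cluster windows positive ran from 28.6% ± 27.2 (SD, n = 23) in the early freezing test to 11.7% ± 14.8 (SD, n = 10) in the SYBR Gold test. In this order came the kit size (27.7%), reagent volumes (27.7%), propidium iodide (25.0%), PCR cycles (23.6%), cresyl violet (22.6%), eosin (21.99%), freezing after incubation (15.3%), proteinase K (14.8%) and full collection libraries (14.4%). Neighbours in this order were also compared by permutation tests (10 pairs, lowest p = 0.361). They have close means because of the sorting, so these tests say nothing on differences between experiments. After the autosomal coverage of each library was subtracted, the 11 experiments had an F of 0.854 in a permutation test (p = 0.577). Without this subtraction, F was 1.23 (permutation p = 0.272).

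**Figure D5:**
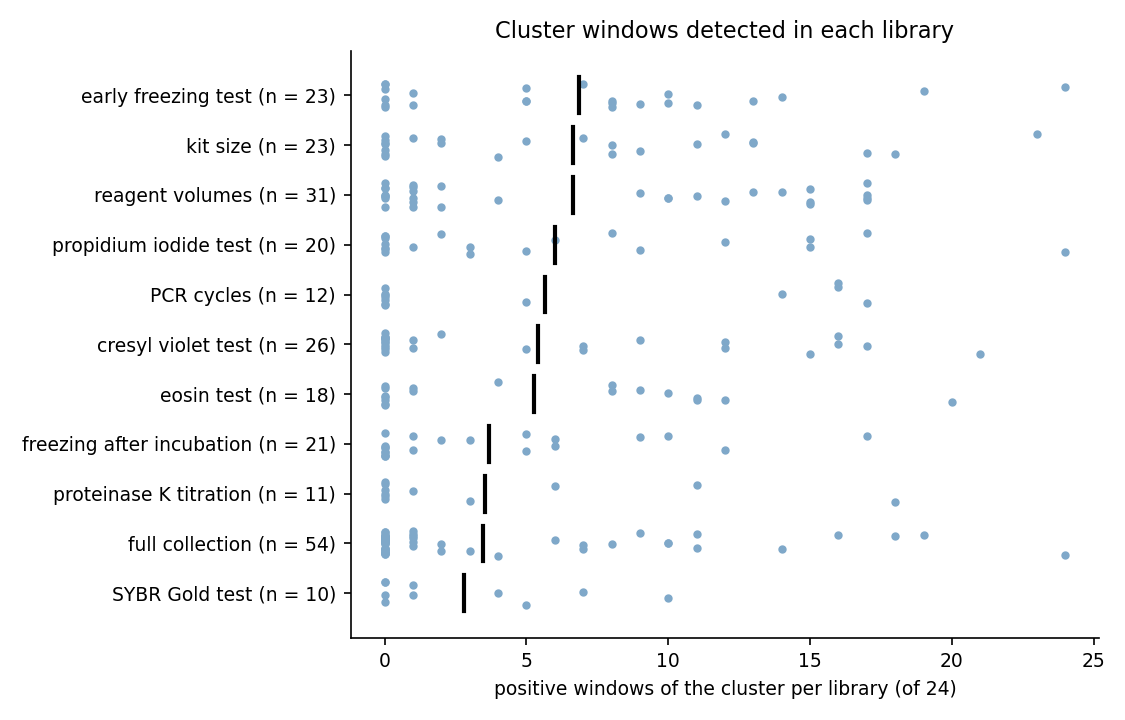
Number of positive cluster windows (of 24) in each library, by experiment, with points spread vertically for visibility and black bars at the mean. Each experiment holds libraries without any cluster window, and 3 libraries, 1 each in the early freezing test, the propidium iodide test and the full collection, hold all 24.

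Between arms of 1 experiment, 11 contrasts of the share of cluster windows minus autosomal coverage were tested by permutation, exact where an arm held fewer than 10 libraries. Of these, 0 passed after adjustment (lowest adjusted p = 0.742) and 0 had an unadjusted p under 0.05. The libraries of 20 PCR cycles (-10.001 ± 13.1, n = 4) minus those of 25 cycles (19.8 ± 42.9, n = 3) gave -29.8 percentage points, with an exact permutation p of 0.257 (the smallest possible is 0.0286). Single libraries of 25 cycles decided this value, which was -54.3 without replicate 3 (exact permutation p = 0.0667) and -14.2 without replicate 1 (exact permutation p = 0.667). Stained cresyl violet libraries exceeded unstained ones by 12.9 percentage points (p = 0.298), large kits minus small ones gave -12.2 percentage points (p = 0.281), and early freezing exceeded late freezing by 8.46 percentage points (p = 0.434). Coverage differed between the latter arms, with 15.3% of autosomal windows positive for large and 24.3% for small kits, and 29.9% for early and 17.7% for late freezing. Without its subtraction these differences were -21.2 percentage points (p = 0.0771) and 20.7 percentage points (p = 0.0662), each with an adjusted p of 0.424. With SDs of 13.1 to 42.9 percentage points within arms, differences of this size were not detectable with these numbers of libraries.

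Away from the cluster, the windows whose presence followed it most closely were found by the partial correlation, over all libraries, of each window with the share of cluster windows positive, given library coverage. The cluster windows themselves had values of 0.480 to 0.720. Of 1965 chromosome 18 windows more than 4 Mb away (median 0.102), the highest was at 13320001 to 13360000 (0.310, plain Pearson r = 0.358), without protein-coding genes. The other top windows of chromosome 18 were at 13560001 (0.303), 15000001 with Taf4b (0.294), 13360001 (0.283) and 14920001 with Psma8 and Taf4b (0.278). On other autosomes (56841 windows, median -0.00622), 4 of the top 5 lay on chromosome 9, led by the window of Gadl1 (115840001 to 115880000, 0.298), with Glb1 in the windows at 114360001 (0.274, with Ccr4) and 114320001 (0.269), and the window at 115600001 (0.273). The fifth was on chromosome 4, at 106000001 with Usp24 (0.257). These are the highest of many values in the same libraries and are given without a test.

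The non-clustered protocadherins, which are encoded singly, were compared by the detection of their start sites. Pcdh1 and Pcdh12, which lie downstream of the cluster on chromosome 18, were positive in 57 and 54 libraries (68.8th and 57.8th percentile of their chromosome). Pcdh8 was positive in 55 libraries, at the 86.0th percentile of chromosome 14, where Pcdh9 had 33, Pcdh17 had 34 and Pcdh20 had 42 (percentiles of 10.1, 12.2 and 41.4). Pcdh10 (37 libraries) and Pcdh18 (38 libraries) lay at percentiles of 5.27 and 6.92 on chromosome 3. Pcdh7 had 42 libraries on chromosome 5 and Pcdh15 had 45 on chromosome 10. On the X chromosome, whose median window was positive in 26 libraries, Pcdh11x had 21 and Pcdh19 had 31. The 4 members of the cluster had 43 to 64.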

How the data were processed

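GAM libraries of 46C cells were analysed from the deposited segregation table. Per the methods of the study and its processing notes, the authors aligned reads to mm9 with Bowtie2 (version 2.1 in the notes), removed duplicates with Samtools and called a 40 kb window positive with GAMtools with a fixed limit of 4 reads. The deposited value is this call (0 or 1, a unit of other kind than counts). Read depth is unknown, and only libraries that passed the quality control of the authors are listed. Unmapped columns numbered 0. How reads from near-identical gene copies were treated is not given in the sources used here.

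Detection, D′, jackknife errors and permutation tests (100000 resamples, smallest p 1e-05) were computed with Python 3.11.15, numpy 2.4.6 and scipy 1.17.1, over windows positive in at least 25 libraries, which all 75 region windows were. The linkage test, checked on simulated data, recovered a lowered linkage but passed an unadjusted threshold too often without one. Adjusted p-values are by Benjamini-Hochberg. All 21 chromosome lengths compared equal those of the NCBIM37 assembly, so GENCODE vM1 coordinates were used. The RefSeq table (GRCm38.p6) served for lengths only, and no sequence was printed. Intervals are 95% (Wilson for shares).

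Named windows were the start sites of 4 members and of 12 non-clustered protocadherins, every cluster window, the 5 highest and 5 lowest pairs by z-score at least 200 kb apart, insulation minima, and the 5 windows most alike beyond 4 Mb and on other autosomes. The members and lists were chosen with earlier results of these data known. Alternatives changed the window filter, linkage measure, reference, distance, averaging, library coverage and experiments.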

Additional observations from a re-analysis of the deposited data

Results flagged for a closer look

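In the proteinase K titration with 2 µl, replicate 2 stood apart from the other 5 libraries of its group. It held 18 of the 24 cluster windows (75.0%), 59.8 percentage points above its autosomal coverage of 15.2%, while 4 of the others held 0 cluster windows and 1 held 1. It held 6 of 7 Pcdha, 4 of 7 Pcdhb and 5 of 6 Pcdhg windows, and 36.6% of the rest of chromosome 18. Of 9 groups with 4 to 10 libraries, 1 was marked in this way. How often chance marks a group in this way was not measured for shares with as many zeros as these. The protocol text gives a smaller volume for this arm than the titles do (0.2 µl per well).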

How the results depend on the processing

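No paired analysis was possible because replicate numbers only name libraries in order of listing and pair none of them. The 9 excess values kept their side of the threshold under each change of window filter, linkage measure, reference, distance and library coverage, and so did the 2 differences, but some directions turned. Linkage within Pcdha became -0.00490 with the Jaccard index, and upstream minus downstream linkage became 0.0325 within 3 strata of library coverage. With a median over pairs, 4 results passed the threshold, at -0.0995 for Pcdha with Pcdhg, -0.0811 for the upstream flank, -0.0740 for the downstream flank and -0.0299 for the difference from the desmocollin and desmoglein cluster. A delete-one jackknife does not hold for a median, as the means of the jackknife values for these 4 were -0.378, -0.111, -0.125 and 0.309, so these p-values were not used. Leaving out the eosin test brought the upstream flank past the threshold (adjusted p = 0.0473), over a range of -0.102 to -0.0722 when each experiment was left out. The downstream flank ranged from -0.0831 to -0.0422 and Pcdha with Pcdhg from -0.160 to -0.0648, with no call. By the same exercise, linkage within the cluster ranged from -0.0468 to -0.00892 with no change of sign. Linkage within Pcdhb ranged from -0.00926 to 0.0371, Pcdha to Pcdhb from -0.0496 to 0.0174 and upstream minus downstream from -0.0282 to 0.00814, each turning sign without at least 1 experiment. Sign changes followed the full collection and reagent volumes for Pcdhb, early freezing for Pcdha to Pcdhb, and SYBR Gold, cresyl violet and propidium iodide for the flanks. The cause was not tested. Detection of the cluster against the rest of chromosome 18 ranged from -1.004 to 1.15 percentage points without each experiment, and its median over libraries was -4.05, near the -4.27 of an ordinary stretch, so its p was not used. All 3 subclusters were counted together in 54 libraries when at least 1 window was required and in 4 when all were. A 200 kb square gave 7 insulation minima, and the other settings gave 2 or 3. Tests across experiments and between arms stayed above the threshold in all settings (lowest p = 0.272 and lowest adjusted p = 0.424). The lower detection of Pcdha than of the upstream flank, an analysis added after seeing the data, ranged from -7.14 to -4.78 percentage points when each experiment was left out and kept its sign. Adjusted over the same 11 tests, it passed in 7 of these 11 cases (highest adjusted p = 0.206 without the full collection), and in the 3 other settings. A value of 0 in the table cannot be separated into an absent window and one with too few reads, and many experiments hold few libraries, which limits all values.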
